A study of Mus musculus with 6 samples.

Results

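The 10 genes described here, Adgre1, Cd14, Lyz2, Spi1, Ptprc, Tyrobp, Mpeg1, Laptm5, Coro1a and Cd53, are general identity genes of macrophages, chosen by name from the 54532 genes of the deposited count table. All 10 had a row of their own and all 10 were among the 12972 genes that passed the filter on low counts. RNA sequencing measured messenger RNA in RAW264.7, a line of mouse macrophages transformed by Abelson leukaemia virus and labelled WT. In 3 libraries (coculture A, B and C) the cells had been cocultured for 48 h with TTJ cells, which lack Tsc2 and came from an angiomyolipoma of a mouse model of tuberous sclerosis complex. In the other 3 libraries (alone A, B and C) they had been grown without TTJ cells, and both lines were kept in DMEM with fetal bovine serum. The study asked how Tsc2-null cells affect the polarization of macrophages. All 6 samples were sorted by flow cytometry before RNA was extracted, and the sources used here do not name the gate. RAW264.7 and TTJ are 1 line each. Whether the replicates were grown as separate cultures is not stated, and the p-values therefore reflect library-to-library spread alone, which may be technical.

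Macrophage identity rests on PU.1, the ETS-family transcription factor encoded by Spi1, which opens and holds active the enhancers of myeloid genes together with C/EBP and IRF factors. The other members encode products by which macrophages are usually recognized: surface receptors (Adgre1, Cd14, Ptprc, Cd53), an adaptor that carries receptor signals inward (Tyrobp), a regulator of the actin cortex (Coro1a), and proteins of lysosomes and phagosomes (Lyz2, Mpeg1, Laptm5). The genes served as a gauge of dilution: RNA from cells that do not express them would lower the share of all members by the same factor. In bulk RNA, fewer cells of a type and less RNA per cell cannot be told apart.

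The members did not move together. In coculture 4 of the 10 rose (Cd53, Adgre1, Cd14 and Lyz2), 3 fell (Tyrobp, Spi1 and Laptm5) and 3 did not pass the test (Ptprc, Mpeg1 and Coro1a). No member changed by as much as 2-fold, with log2 changes from -0.30 for Tyrobp to 0.26 for Cd53. Over all genes tested 21.7% were called higher and 15.2% lower, and among the 4618 genes that lone cells held at 50 CPM or more (counts per 1000000 counts of the TMM-scaled library size) these shares were 15.2% higher and 29.1% lower. The median log2 change of the members was 0.03, beside 0.0029 over all genes tested and -0.05 over those 4618 genes. The median size of the change, regardless of direction, was 0.14 for the members, 0.17 for all genes tested and 0.12 for the 4618 genes. In CPM the groups did not overlap for 7 members, 4 above and 3 below, which over all genes tested held for 26.1% above and 21.0% below. On shares of raw counts the same 7 stood apart, beside 26.5% above and 20.5% below over all genes tested. Calls are from edgeR's quasi-likelihood test at a Benjamini-Hochberg adjusted p under 0.05, and log2 changes are coculture over alone.

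**Figure D1:**
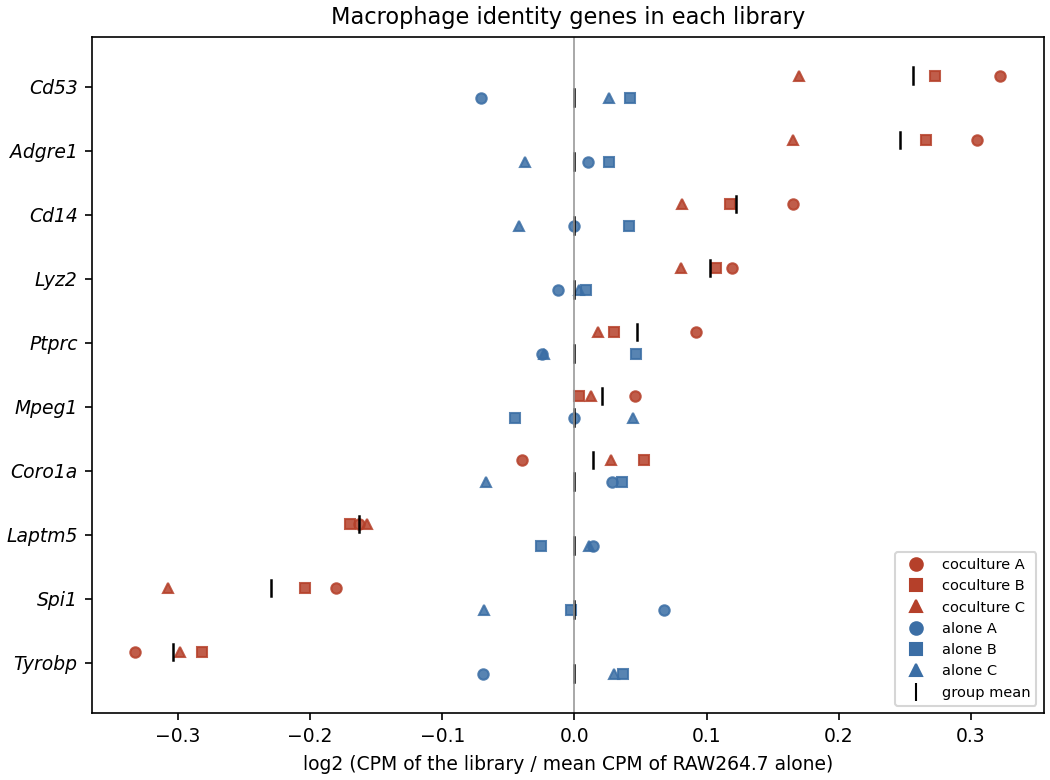
Each point is 1 library, placed by the log2 of its CPM over the mean CPM of RAW264.7 cells alone, with coculture (red) above alone (blue) for each gene and a black tick at each group's mean. The 3 cocultured points lie right of the 3 lone points for Cd53, Adgre1, Cd14 and Lyz2, left of them for Laptm5, Spi1 and Tyrobp, and among them for Ptprc, Mpeg1 and Coro1a.

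Total counts were 14329487, 15643602 and 16976782 in coculture A, B and C, and 14621832, 16700748 and 17358280 in alone A, B and C. Each member rested on between 1072 counts (Adgre1, alone A) and 121750 counts (Lyz2, coculture C) in a library. The label of the cells was checked against other cell types. The 12 markers of T, B and NK cells summed to 7.81 to 10.6 CPM in coculture and 0.824 to 1.55 CPM alone, and both tested ones, Pax5 (no count alone) and Gata3, were called higher. Pax5 met the filter through coculture alone, which fixed its direction, and averaged 6.05 CPM of the coculture sum. The 12 markers of neutrophils and mast cells summed to 3.08 to 4.91 CPM in coculture and 5.35 to 8.31 CPM alone. The 8 endothelial markers, of which none passed the filter, summed to 1.02 to 1.47 CPM in coculture and 0.173 to 0.893 CPM alone. Cd3e, Ms4a1 and Ly6g had no count in any library. Of 15 markers of renal and simple epithelial cells, 12 had counts in coculture and 3 alone, with sums of 361 to 416 CPM in coculture and 0 to 0.115 CPM alone, while Epcam was at 0 in all 6 libraries. Cdh16, the kidney-specific cadherin, had 5764 counts in coculture and 0 alone. Krt8, a keratin of simple epithelia, had 4317 counts in coculture and 0 alone. Genes with at least 10 counts in coculture and none alone numbered 688 and held 0.294% ± 0.0172 of the cocultured counts (SD, n = 3). The 20 mesenchymal and smooth muscle markers summed to 1584 to 1644 CPM in coculture and 995 to 1055 CPM alone, most of it Vim, which macrophages also express. Col5a1, a fibrillar collagen gene, had 1203 counts in coculture and 1 alone, while Col3a1 and Pdgfra had no count in any library. The 8 dendritic cell markers summed to 15.3 to 19.3 CPM in coculture and 4.32 to 5.63 CPM alone, with Flt3, Siglech and Ccr7 at 0 in all libraries. Most of that difference was Itgax (14.3 CPM in coculture, 2.49 CPM alone), while Zbtb46 was level (2.15 and 2.17 CPM). The part of other cells' RNA in the values below was not tested.

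As a share of raw counts, which depends on no scaling factor, the 10 members held 1.26%, 1.26% and 1.23% of cocultured libraries A, B and C, and 1.188%, 1.206% and 1.196% of lone libraries A, B and C. The groups did not overlap, and the mean was 4.57% higher in coculture in relative terms (1.25% ± 0.0147 in coculture and 1.196% ± 0.00888 alone, SD, n = 3 each). Mitochondrial genes held 1.39% ± 0.0377 of the counts in coculture and 1.65% ± 0.0995 alone, also without overlap, and the part of this in the members' values was not tested. The other 9 members, without Lyz2, held 0.530%, 0.526% and 0.517% of the cocultured libraries and 0.521%, 0.526% and 0.518% of the lone ones. Those ranges overlapped, and the means differed by 0.605% in relative terms (0.525% ± 0.00648 in coculture and 0.521% ± 0.00401 alone). The sum joins members that rose with members that fell, given gene by gene below.

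**Figure D2:**
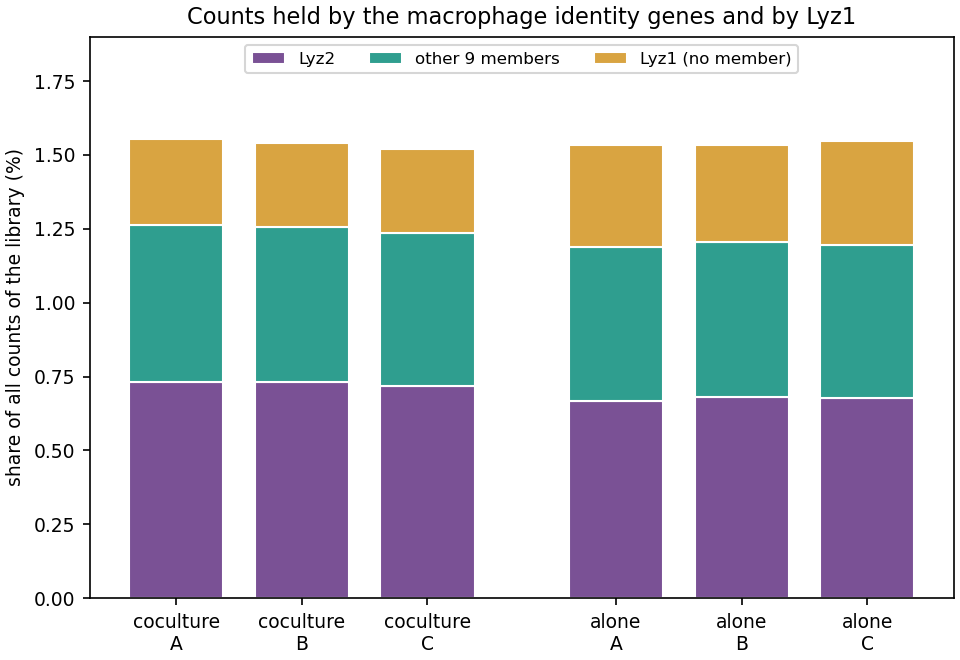
Stacked bars give, for each library, the percentage of all its counts held by Lyz2, by the other 9 members and by Lyz1, a paralog that is no member. The Lyz2 part is taller and the Lyz1 part shorter in the 3 cocultured libraries, and the full bars reach 1.52% to 1.55% in both groups.

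The lysozyme pair carried the largest counts, and its sequences are shown first because reads of near-identical genes can be assigned to the wrong copy. Lyz2 encodes lysozyme M, which cuts the peptidoglycan of bacterial walls and is the classical secreted enzyme of mouse macrophages and neutrophils. Lyz1 encodes lysozyme P, best known from Paneth cells of the gut. The genes are neighbours on the minus strand of chromosome 10 (Lyz2 from 117277331 to 117282321, Lyz1 from 117287797 to 117292868, mm10). In the GENCODE M21 transcripts their coding sequences were identical at 425 of 447 bases (95.1%) and their 3′ UTRs at 96.3% of aligned bases. Of the 100-base stretches of the Lyz2 transcript 1.97% occurred unchanged in Lyz1, and of the 150-base stretches 0%. The 250 bases before each start were less alike (200 of 248 aligned bases identical, 80.6%). They are printed 5′ to 3′ from RefSeq (GRCm38.p6, minus strand), with capitals at bases that differ from the other gene or have no partner in the alignment. The RefSeq start of Lyz2 lies inside the gene span given above, so its printed bases overlap that span.
Lyz2, chr10:117282273-117282522: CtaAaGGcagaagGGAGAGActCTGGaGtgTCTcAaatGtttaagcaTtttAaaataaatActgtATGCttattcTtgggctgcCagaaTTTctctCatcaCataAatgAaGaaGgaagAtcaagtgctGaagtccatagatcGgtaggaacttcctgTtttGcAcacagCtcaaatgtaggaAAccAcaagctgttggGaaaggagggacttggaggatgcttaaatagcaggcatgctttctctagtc
Lyz1, chr10:117292869-117293118: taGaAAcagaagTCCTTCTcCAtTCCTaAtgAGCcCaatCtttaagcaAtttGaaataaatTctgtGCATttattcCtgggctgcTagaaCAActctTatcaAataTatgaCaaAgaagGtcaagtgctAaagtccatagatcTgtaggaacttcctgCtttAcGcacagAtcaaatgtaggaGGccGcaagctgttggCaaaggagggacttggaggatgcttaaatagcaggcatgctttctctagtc
The differing bases crowd the distal part, and the stretch nearest the start is almost free of capitals in both.

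Lyz2 stood at 7343, 7282 and 7147 CPM in coculture A, B and C, against 6702, 6800 and 6777 CPM in alone A, B and C. The groups did not overlap, and the rise was small (1.07-fold, log2 change 0.10, SE 0.0267, adjusted p = 0.00343, edgeR). Lyz1 went the other way, with 2926, 2831 and 2845 CPM in coculture against 3470, 3266 and 3522 CPM alone (1.19-fold lower, log2 change -0.25, SE 0.0324, adjusted p = 5.43e-07). Within the pair, Lyz2 took 71.5%, 72.0% and 71.5% of the counts in coculture and 65.9%, 67.6% and 65.8% alone, a ratio inside each library that needs no scaling. The exact two-sided permutation test of that share gave p = 0.1, the smallest that 3 against 3 libraries can give. With the counts of both genes summed into 1 feature, an alternative chosen after seeing the data, the log2 change was -0.0078 (adjusted p = 0.850). The assignment of reads between the copies was not tested. Counts of the 10 members plus Lyz1 came to 1.54% ± 0.0173 of the cocultured libraries and 1.54% ± 0.00912 of the lone ones. The call of Lyz2 was also lost on log2(FPKM + 1), at an adjusted p of 0.172.

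Spi1, the gene of PU.1 (ENSMUSG00000002111, chromosome 2, 91082390 to 91115756), fell. It had 318, 313 and 291 CPM in coculture A, B and C, against 377, 359.6 and 344 CPM in alone A, B and C. Every cocultured library lay below every lone one, with coculture C the lowest of the 6. The fall was 1.17-fold (log2 change -0.23, SE 0.0451, 95% interval -0.32 to -0.14, adjusted p = 2.06e-04, edgeR). It kept its sign and its call under each of the 19 alternatives, with log2 changes from -0.26 to -0.19.

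PU.1 binds purine-rich sites, so RefSeq promoter windows (250 bases before to 50 after each start, GRCm38.p6) were searched for the core GAGGAA on either strand. The search covered windows of 6 members (Lyz2, Ptprc, Mpeg1, Laptm5, Coro1a and Cd53), 8 windows in all. The promoter of Cd14 was left out of the search and is not reported here. The core was in 3 of the 8, those of Cd53 and Laptm5 and 1 of the 2 windows of Ptprc, beside 28.3% of all 32851 windows. The promoters of Cd53, which rose, and Laptm5, which fell, are shown because both hold the core close to the start, 5′ to 3′, with the core or its reverse complement in capitals.
Cd53, chr3:106790150-106790399, minus strand: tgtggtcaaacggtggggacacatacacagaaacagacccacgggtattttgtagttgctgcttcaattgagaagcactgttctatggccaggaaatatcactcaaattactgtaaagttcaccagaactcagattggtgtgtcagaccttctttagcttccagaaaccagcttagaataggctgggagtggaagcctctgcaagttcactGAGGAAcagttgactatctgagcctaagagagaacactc
Laptm5, chr4:130913066-130913315, plus strand: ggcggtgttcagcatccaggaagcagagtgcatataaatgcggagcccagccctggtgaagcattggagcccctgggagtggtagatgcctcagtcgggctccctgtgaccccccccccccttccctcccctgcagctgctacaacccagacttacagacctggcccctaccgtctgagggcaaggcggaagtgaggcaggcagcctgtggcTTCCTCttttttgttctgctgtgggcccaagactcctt
The first base of the core lies 39 bases before the start in Cd53 and, on the opposite strand, that of its reverse complement 38 bases before the start in Laptm5. The Cd53 window also holds the reverse complement 8 bases after the start, beyond the printed stretch. The printed Laptm5 bases reach into the gene span of the deposited annotation, which begins at 130913125. These matches describe letters in a window and not bound sites.

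Of the 20 other macrophage transcription factors listed, all tested, 9 rose, 2 fell and 9 did not pass, with a median log2 change of 0.07. Maf, a basic leucine zipper factor of macrophages, had 331 counts in coculture and 3 alone, or 114 times as many per scaled library (exact 95% interval 38.7 to 556, counting error only). It met the filter on low counts through the cocultured libraries alone. Irf8, a partner of PU.1, rose to 90.9 ± 3.46 CPM in coculture, against 65.2 ± 1.04 CPM alone. Cebpb, a second partner, rose to 75.5 ± 2.22 CPM in coculture, against 60.4 ± 2.57 CPM alone. Zeb2, a repressor that helps set tissue macrophage identity in mice, fell to 123 ± 9.90 CPM in coculture, against 156 ± 7.32 CPM alone. Gfi1, a repressor best known from neutrophils, fell to 2.37 ± 0.460 CPM in coculture, against 4.36 ± 0.803 CPM alone. Cebpa, Runx1, Fli1 and Ikzf1 did not pass the test, with log2 changes of -0.16, -0.02, -0.20 and 0.07. Irf8, Cebpb, Gfi1, Cebpa, Runx1, Fli1 and Ikzf1 are named here after their values were seen. SDs are over 3 libraries here and below.

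Among the surface receptors, Adgre1, Cd53 and Cd14 rose and Ptprc did not pass. Adgre1 encodes F4/80, an adhesion G protein-coupled receptor that marks mouse macrophages (ENSMUSG00000004730, chromosome 17, 57358691 to 57483527). It had 90.3, 87.9 and 82.0 CPM in coculture A, B and C, against 73.6, 74.4 and 71.3 CPM in alone A, B and C. The groups stood apart, with coculture C nearest to the lone libraries (1.19-fold higher, log2 change 0.25, SE 0.0547, adjusted p = 8.01e-04, edgeR). Cd53 encodes a tetraspanin of leukocyte membranes (ENSMUSG00000040747, chromosome 3, 106759921 to 106790149). It had 351, 339 and 316 CPM in coculture, against 267, 289 and 286 CPM alone. This was the largest rise among the members (1.19-fold, log2 change 0.26, SE 0.0459, adjusted p = 6.98e-05), and coculture C was again the lowest of the cocultured libraries.

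Cd14 encodes the membrane-anchored coreceptor that hands bacterial lipopolysaccharide to TLR4 (ENSMUSG00000051439, on chromosome 18). It had 1531, 1482 and 1445 CPM in coculture A, B and C, against 1365, 1405 and 1326 CPM in alone A, B and C. The groups did not overlap, but the gap between coculture C and alone B was narrow (1.09-fold higher, log2 change 0.12, SE 0.0348, adjusted p = 0.00709, edgeR). The call was lost without coculture replicate A (adjusted p = 0.0616) and on log2(FPKM + 1) (0.0562) or log2(FPKM + 0.1) (0.0609), within a range of 8.78e-04 to 0.0616 over the alternatives. Ptprc encodes CD45, the phosphatase that sets the activity of Src-family kinases in leukocytes (ENSMUSG00000026395, chromosome 1, 138062861 to 138175708). It had 343, 329 and 326 CPM in coculture, against 317, 333 and 317 CPM alone. The groups overlapped, and the log2 change of 0.05 had a 95% interval of -0.04 to 0.13 (adjusted p = 0.411).

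**Figure D3:**
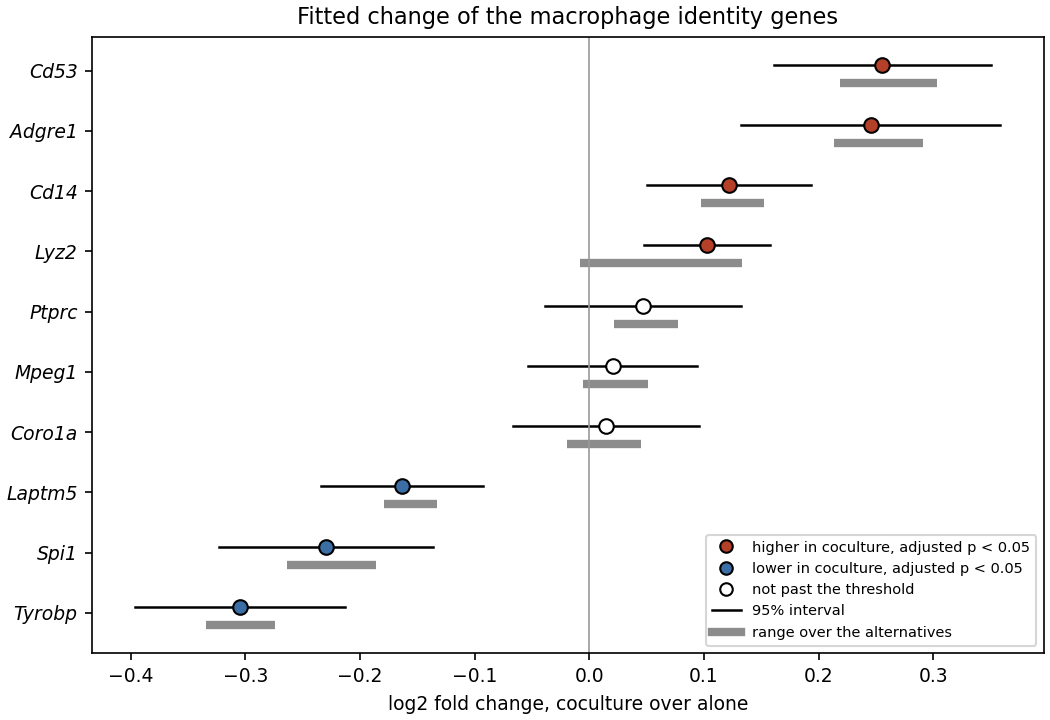
Circles give the fitted log2 fold change of each member, coculture over alone, with its 95% interval as a thin line, and grey bars give the range over the 19 alternatives. The intervals of Ptprc, Mpeg1 and Coro1a cross 0, and the grey bar of Lyz2 reaches 0 through the alternative that sums Lyz1 and Lyz2.

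Of 16 tested genes of lipopolysaccharide sensing beside Cd14, 3 fell and 13 did not pass in edgeR's test, with a median log2 change of -0.06. The 3 were the kinase genes Irak1 (log2 change -0.32, adjusted p = 2.62e-05) and Irak2 (-0.34, 4.86e-04), and Cd180, a relative of TLR4 named after its values were seen (-0.24, 0.00216). Tlr4 itself had 97.6 ± 4.54 CPM in coculture and 101 ± 11.4 CPM alone and did not pass. All 10 tested tetraspanins beside Cd53 passed, 8 higher and 2 lower, with a median of 0.26. Cd151, which associates with integrins, rose 1.75-fold to 43.7 ± 4.10 CPM, and Cd81 rose 1.49-fold to 32.6 ± 2.44 CPM. The tetraspanins that fell were Cd37 (1.18-fold lower, to 83.5 ± 2.87 CPM) and Cd82 (1.15-fold lower, to 49.4 ± 1.06 CPM). Of 22 phosphatases and kinases related to CD45, 8 rose and 5 fell (median log2 change -0.0027). Ptprk and Yes1 were among those called higher, with 877 and 307 counts in coculture and 0 alone, at least 304-fold and 105-fold higher against a floor of 3 counts over the lone group. Ptprf had 280 counts in coculture and 2 alone. All 3 met the filter through coculture alone, which fixes their direction, and the list median was the same with them at their bound or ratio. Ptprf is named after its values were seen. Ptpro fell 1.49-fold to 25.8 ± 2.04 CPM and Ptpra 1.21-fold to 239 ± 4.85 CPM.

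Of the other surface and secreted identity genes listed, 30 were tested, of which 15 rose and 9 fell (median log2 change 0.26). Csf1r, the receptor for the macrophage growth factor, had 2014 ± 23.9 CPM in coculture and 1926 ± 64.5 CPM alone and did not pass (adjusted p = 0.132, edgeR). Adgre5, which like Adgre1 encodes an adhesion G protein-coupled receptor, rose 8.84-fold to 9.69 ± 1.39 CPM in coculture, against 1.08 ± 0.263 CPM alone. Emb, which encodes the adhesion protein embigin, rose 8.65-fold to 6.47 ± 0.624 CPM in coculture, against 0.753 ± 0.413 CPM alone, and met the filter on low counts only with the cocultured libraries, so its direction was fixed. Cybb, the membrane subunit of the phagocyte oxidase, fell 1.40-fold to 855 ± 36.5 CPM, and the inhibitory receptor gene Cd300a fell 1.26-fold to 43.9 ± 4.26 CPM. Csf1r is named after its values were seen.

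Tyrobp showed the largest fall. It encodes DAP12, a short transmembrane adaptor with an ITAM that couples TREM2, CLEC5A and related receptors to the kinase SYK (ENSMUSG00000030579, chromosome 7, 30413760 to 30417585). It had 196, 203 and 201 CPM in coculture A, B and C, against 236, 254 and 253 CPM in alone A, B and C. The groups stood well apart, and the cocultured libraries were the tighter group (1.23-fold lower, log2 change -0.30, SE 0.0443, 95% interval -0.40 to -0.21, adjusted p = 4.03e-06, edgeR).

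Of 20 tested genes of DAP12 and Fc receptor gamma chain signalling, 7 rose and 4 fell, with a median log2 change of -0.01. Genes of receptors that couple to DAP12 moved both ways, but of those listed Cd300lb alone was called lower. Trem3 and Sirpb1a, named after their values were seen, rose (log2 changes 0.68 and 1.59, adjusted p = 5.20e-04 and 7.23e-06, edgeR). Clec5a rose 1.85-fold to 310 ± 13.9 CPM in coculture (adjusted p = 2.07e-14, edgeR). Cd300lb, named after its values were seen, fell to 145 ± 4.95 CPM in coculture, against 160.3 ± 5.08 CPM alone (log2 change -0.14, adjusted p = 0.019). Trem1 had 338 counts in coculture and 17 alone (7.22 ± 1.76 CPM in coculture and 0.363 ± 0.221 CPM alone), and it met the filter only with the cocultured libraries, so its direction was fixed. The kinase gene Btk fell 1.25-fold to 95.9 ± 2.88 CPM, and Ptpn6, which encodes the inhibitory phosphatase SHP-1, fell 1.13-fold to 352 ± 12.4 CPM. Fcer1g, the related adaptor gene, had 82.0 ± 2.04 CPM in coculture and 83.6 ± 2.90 CPM alone (adjusted p = 0.730). Trem2, a receptor that depends on DAP12, had 181 ± 3.28 CPM in coculture and 185 ± 2.18 CPM alone (adjusted p = 0.577). Fcer1g and Trem2 are named after their values were seen.

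Coro1a encodes coronin 1A, which binds actin in leukocytes and associates with phagosomes (ENSMUSG00000030707, chromosome 7, 126699773 to 126707787). It had 665, 709 and 697 CPM in coculture A, B and C, against 697, 701 and 652 CPM in alone A, B and C. The groups overlapped on both sides, and the log2 change of 0.01 had a 95% interval of -0.07 to 0.10 (adjusted p = 0.815, edgeR). In GENCODE M21, 26 of its 2783 exonic bases overlap Bola2 on the opposite strand, and no other member shares exonic bases with another gene. Around it, 5 of 27 tested genes of the leukocyte actin cytoskeleton rose and 10 fell (median log2 change -0.04). Parvg, an integrin-linked adaptor gene, fell 1.39-fold to 187 ± 4.28 CPM, and Lsp1, a leukocyte actin-binding protein gene, 1.43-fold to 34.8 ± 3.11 CPM. Coro2a, of the coronin family, rose 1.72-fold to 15.4 ± 0.303 CPM, and Pstpip1 rose 1.35-fold to 105 ± 1.41 CPM.

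Laptm5 encodes a lysosomal membrane protein of blood cells that binds ubiquitin ligases of the NEDD4 family (ENSMUSG00000028581, chromosome 4, 130913125 to 130936141). It had 846, 842 and 849 CPM in coculture A, B and C, against 956, 931 and 954 CPM in alone A, B and C. The cocultured libraries varied by only 0.438% around their mean, all below the lone ones (1.12-fold lower, log2 change -0.16, SE 0.0343, adjusted p = 4.30e-04, edgeR). Mpeg1 encodes perforin-2, a pore-forming protein of phagosomes (ENSMUSG00000046805, chromosome 19, 12460779 to 12465284). It had 971, 943 and 949 CPM in coculture, against 941, 912 and 970 CPM alone. The groups overlapped, and the log2 change of 0.02 had a 95% interval of -0.05 to 0.09 (adjusted p = 0.701).

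Of 22 tested lysosomal relatives and partners of Laptm5, Lyz2 and Mpeg1, 16 rose and 2 fell (median log2 change 0.18). The genes that fell were Lyz1 and Hexa, a hexosaminidase subunit gene (1.22-fold lower, to 225 ± 3.89 CPM). Laptm4b, a relative of Laptm5, rose 8.05-fold to 11.5 ± 1.68 CPM. Nedd4 had 4797 counts in coculture and 0 alone, at least 1656-fold higher against a floor of 3 counts over the lone group, and its direction too was fixed by the filter. Prf1, the perforin of killer lymphocytes, had 0 counts in coculture and 2 alone.

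**Figure D4:**
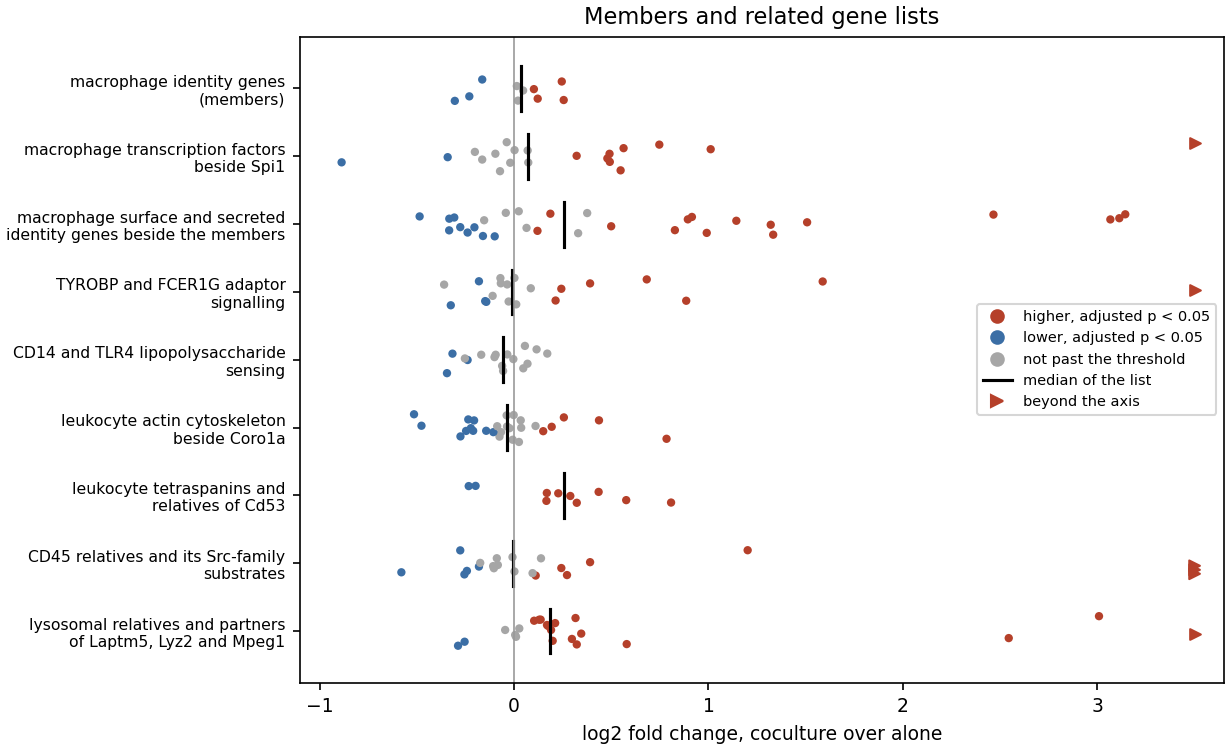
Each point is 1 tested gene, placed by its log2 fold change, coculture over alone, for the 10 members and for 8 related gene lists, with a black line at each median. Members span -0.30 to 0.26, while 6 genes of the related lists (Maf, Trem1, Ptprk, Ptprf, Yes1 and Nedd4) lie beyond the axis limit of 3.5 and are drawn as triangles.

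Across the 8 lists together, 161 different genes were tested, of which 65 rose (40.4%) and 35 fell (21.7%), with a median log2 change of 0.03. The members' own median was also 0.03. Of the 161 genes, 19 rose at least 2-fold and 0 fell that far. Over all 12972 genes tested, 21.7% were called higher and 15.2% lower, with 1232 up and 75 down at least 2-fold. Maf, Emb, Trem1, Ptprk, Ptprf, Yes1 and Nedd4 are among the 19. They met the filter on low counts through coculture alone, so their direction was fixed. 

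Per length of gene, the members spread over a 304-fold range in coculture. Deposited FPKM (fragments per kilobase of gene, scaled to library total) averaged 5512 for Lyz2 in coculture and 5130 alone, the highest of the members. Cd14 followed at 945 FPKM in coculture and 867 FPKM alone, and Tyrobp at 300.2 FPKM in coculture and 370.2 FPKM alone. Coro1a (248 FPKM in coculture, 245 alone), Laptm5 (223 in coculture, 249.7 alone) and Mpeg1 (220.1 in coculture, 217 alone) lay close together. Over the 6 libraries Coro1a overlapped Laptm5 and Laptm5 overlapped Mpeg1, so the order of these neighbours is not fixed, and Coro1a and Laptm5 traded places between the groups. Cd53 averaged 192 FPKM in coculture and 161 FPKM alone, and Spi1 114 FPKM in coculture and 133 FPKM alone. Adgre1, at 26.8 FPKM in coculture and 22.6 FPKM alone, and Ptprc, at 18.2 FPKM in coculture and 17.6 FPKM alone, were the lowest. The deposited length of Ptprc was 18313 bases, all its annotated exonic bases, against 3238 for Adgre1. In CPM Ptprc stood above Adgre1 (333 and 86.7 CPM in coculture). The last rank of Ptprc and the 304-fold range therefore rest on that length.

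**Figure D5:**
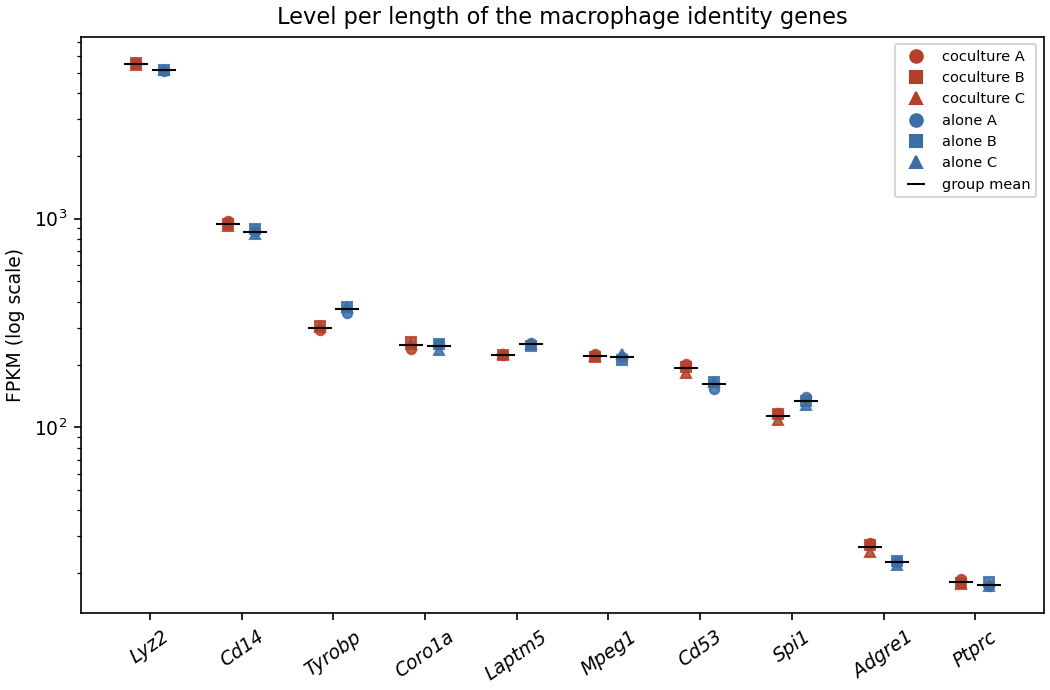
Points give the deposited FPKM of each member in each library on a log axis, coculture (red) left of alone (blue), with a line at each group's mean. The order runs from Lyz2 at 5512 FPKM in coculture to Ptprc at 18.2 FPKM, and differences between genes are far larger than those between the groups.

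Replicates varied little for any member. The SD of the CPM was 0.438% of the mean (Laptm5) to 5.35% (Cd53) in coculture and 0.759% (Lyz2) to 4.71% (Spi1) alone. Among 8613 other protein-coding genes with a mean of at least 10 CPM, the profiles nearest to the median profile of the members over the 6 libraries were those of Sipa1, Tcp1 and Fam120a, at Euclidean distances of 0.0263, 0.0307 and 0.0382 on the log2 CPM scale. None of the 3 passed the test between the groups, with log2 changes of 0.07, 0.05 and 0.03. The median profile was itself nearly level, from -0.05 to 0.05, so many genes with little change lie near it.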

How the data were processed

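RNA was selected with poly-T beads and sequenced as paired reads, per the labels' protocols. The authors deposited raw counts per gene and FPKM values for the same 6 libraries. The submitters' processing notes list mm10, featureCounts 1.5.0-p3 and HISAT2 2.0.5, and also edgeR 3.22.5 beside DESeq2 1.20.0, with no roles. The sources used here give no strand setting. No row was blank or a total, and 0 columns belonged to other samples.

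The whole table was fitted with edgeR 4.0.16 in R 4.3.3 (TMM, filterByExpr, 1 group term, quasi-likelihood F test), and Benjamini-Hochberg adjustment ran over all 12972 genes tested. SE is the absolute log2 change over the square root of F. Alternatives used DESeq2 1.42.0, limma 3.58.1, other scalings and filters, FPKM with pseudocounts of 1 and 0.1, the replicate letter as a block, and each library left out. The summing of Lyz1 with Lyz2 and the 50 CPM limit were chosen after seeing the data. Replicate libraries of each group were compared and exceeded sampling noise (chi-square per degree of freedom 3.10 to 4.82). The procedure was tested on simulated data.

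The members and lists were chosen with earlier results of these data known. All members are named. From each list came up to 2 called genes per direction, ranked by size of change among those reaching 5 CPM in 1 group, or else the most abundant gene, and from each list of other cell types the 2 highest in coculture. Exceptions are stated in the text, and some genes are not reported here.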

Additional observations from a re-analysis of the deposited data

How the results depend on the processing

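Of 190 member-by-alternative log2 changes (10 genes, 19 alternatives), 181 kept their direction and side of the threshold. Adgre1, Cd53, Spi1, Tyrobp, Laptm5 and Ptprc did so in all 19. Coro1a, not called, ranged from -0.019 to 0.038 with 1 library left out and turned negative without coculture replicate B (-0.0054) or alone replicate C (-0.019). Mpeg1, not called, ranged from -0.0050 (without alone replicate B) to 0.042 with 1 library left out. Lyz2 turned to -0.0078 with Lyz1 summed, an alternative chosen after seeing the data, and the cause lies in the counts added. On log2(FPKM + 1) and log2(FPKM + 0.1), 2 members were called higher, not 4, since Cd14 and Lyz2 did not pass. The cause was not tested. On log2(FPKM + 1) with a mean FPKM of at least 1, where fewer genes were tested, 1707 of all genes were called higher, not 2819. There 4 members were called higher, with Cd14 (adjusted p = 0.0387, limma) and Lyz2 (0.0343) past the threshold again. The difference of the members' share of counts, coculture minus alone, was 0.0547 percentage points, 0.00315 without Lyz2 and 0.000259 with Lyz1 added. The median log2 change of the members was 0.02 to 0.06 over the 19 alternatives, the highest with TMM over genes at 10 CPM or more alone. Same-letter replicates did not deviate together (r of 0.0014, 0.02 and 0.03 for A, B and C). With the replicate block 4 members were called higher and 3 lower, and 2815 genes were higher and 1951 lower, so the block changed no call of a member. Summed FPKM of the members was 1.05 times that of lone cells, and 1.06 times as TPM.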

Other observations

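Genes of the phagocyte oxidase, the enzyme complex that makes superoxide in phagosomes, are named here after their values were seen, with calls from edgeR's test. Cybb fell to 855 ± 36.5 CPM in coculture, against 1197 ± 57.8 CPM alone. Ncf1 fell to 432 ± 15.05 CPM in coculture, against 483 ± 8.02 CPM alone, and Ncf4 to 110.7 ± 1.67 CPM, against 128 ± 8.01 CPM alone. Cyba had 276 ± 14.2 CPM in coculture and 285 ± 19.2 CPM alone (adjusted p = 0.553).

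The Src-family kinase genes, whose products CD45 acts on, also differed among themselves. Src rose to 22.1 ± 1.09 CPM in coculture, against 9.56 ± 1.66 CPM alone. Lyn rose to 213 ± 4.43 CPM, against 179.7 ± 3.18 CPM alone, and Fgr to 41.8 ± 3.24 CPM, against 31.8 ± 3.57 CPM alone. Fyn fell to 40.0 ± 1.898 CPM in coculture, against 47.8 ± 1.03 CPM alone. These genes too are named after their values were seen, and SDs are over 3 libraries.

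Among markers of other cells, Kdr, an endothelial receptor gene, had 0.540 ± 0.147 CPM in coculture and 0.147 ± 0.0512 CPM alone, and Cdh5, the endothelial cadherin gene, 0.440 ± 0.196 CPM in coculture and 0.0828 ± 0.0907 CPM alone. The granulocyte gene Csf3r had 3.31 ± 0.880 CPM in coculture and 6.15 ± 1.32 CPM alone, and S100a8 0.469 ± 0.0217 CPM in coculture and 0.254 ± 0.148 CPM alone. Kdr, Cdh5 and S100a8 did not pass the filter on low counts and were not tested. They rested on 25, 21 and 22 counts in coculture and 7, 4 and 12 alone. Itgax, which encodes CD11c, had 14.3 ± 1.57 CPM in coculture and 2.49 ± 0.523 CPM alone, and Zbtb46 2.15 ± 0.499 CPM in coculture and 2.17 ± 0.301 CPM alone. Gata3, a T cell and renal transcription factor gene, had 2.34 ± 0.568 CPM in coculture and 1.01 ± 0.296 CPM alone.
Pax5, a B cell transcription factor gene, had 285 counts in coculture and 0 alone, while Ms4a1 and Cd3e had none in any library.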
